A study of Mus musculus with 3 samples.

Results

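Genes controlled by the liver X receptors (LXRs) and genes that move cholesterol and fatty acids in macrophages were followed through 12 h of lipopolysaccharide (LPS), a component of bacterial outer membranes, in the mouse macrophage-derived line RAW264.7. The set was chosen by name and holds 10 genes: the receptors Nr1h3 and Nr1h2, the cholesterol exporters Abca1 and Abcg1, the apolipoprotein gene Apoe, the ubiquitin ligase gene Mylip, the lipase gene Lpl, and Srebf1, Scd1 and Scd2 of fatty acid synthesis. Of these, 9 had a probe set annotated to them alone, among 12393 genes named on the array, and Nr1h2 had none. The 9 genes had 15 probe sets in all. By their brightest probe sets, Abca1 was 2.25-fold higher at 12 h than at 0 h, Mylip was 2.05-fold lower at 12 h than at 2 h, and no other gene of the set passed 2-fold. Scd2 was lower at 12 h in all 3 of its probe sets by 1.27-fold to 3.20-fold, Lpl was at most 1.43-fold and Srebf1 at most 1.20-fold from 0 h, and Apoe was not detectable above the floor set for low signals.

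The samples were RAW264.7 cells after 2 h of LPS, after 12 h of LPS and at 0 h, with 1 array per time and 3 arrays in all. All came from this 1 established line, the LPS dose is not given in the sources used here, and no array of cells kept without LPS for 2 or 12 h was analysed here. Time in culture and LPS therefore cannot be told apart in any difference from 0 h, and no difference has a replicate or a test. In RNA from whole cultures, fewer cells that express a gene and less of its RNA per cell cannot be told apart.

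LXRs are nuclear receptors that bind oxysterols, oxidised forms of cholesterol, and pair with retinoid X receptors on DNA. When a macrophage fills with cholesterol, they switch on Abca1 and Abcg1, which hand cholesterol to lipoproteins outside the cell, and Mylip, whose product marks the LDL receptor for degradation. They also act on Srebf1, whose product turns on genes of fatty acid synthesis such as the desaturases Scd1 and Scd2. In macrophages, signalling by Toll-like receptors is known to interfere with LXR activity on some target genes.

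The classical LXR site is DR4, a direct repeat in which the half-site AGGTCA, 4 bases of any kind and AGGTCA again follow each other. It was searched on both strands of promoters from RefSeq (GRCm38.p6), from 250 bases before to 50 bases after a gene's start, with up to 3 of its 12 fixed letters differing. The promoter table matched 6 of the 10 genes, with 11 start sites, and Abcg1, Lpl, Scd1 and Scd2 were not matched. A DR4 match was found at 2 of the 11 start sites, the only one listed for Abca1 and the third of 3 listed for Srebf1. Of all 32851 promoters of the same length, 21.9% held such a match. Counted by gene, it was 2 of 6 here and 24.5% of 27025 genes in the table, so a match of this looseness is common. The 250 bases before both starts are shown because they hold the DR4 letters of the exporter and of the lipid synthesis regulator. Each is read 5′ to 3′ on the minus strand, with the match in capitals, at chr4:53159896-53160145 for Abca1 and chr11:60210472-60210721 for Srebf1.
Abca1: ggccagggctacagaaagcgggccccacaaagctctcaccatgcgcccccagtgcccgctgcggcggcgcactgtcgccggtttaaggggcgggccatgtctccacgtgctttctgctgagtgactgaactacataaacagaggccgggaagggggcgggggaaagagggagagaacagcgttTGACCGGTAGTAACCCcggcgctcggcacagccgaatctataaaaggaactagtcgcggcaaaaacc
Srebf1: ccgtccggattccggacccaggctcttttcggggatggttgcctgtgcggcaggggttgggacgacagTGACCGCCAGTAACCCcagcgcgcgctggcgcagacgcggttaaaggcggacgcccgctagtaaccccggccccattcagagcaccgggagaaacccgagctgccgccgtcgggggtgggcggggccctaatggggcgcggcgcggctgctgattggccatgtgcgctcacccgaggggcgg
Both matches lie on the opposite strand of the printed sequence, 67 to 52 bases before the start of Abca1 and 182 to 167 bases before that of Srebf1. Read along the motif, with the half-sites in capitals and the spacer in lower case, they compare as follows.
Abca1: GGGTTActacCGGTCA
Srebf1: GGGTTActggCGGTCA
Each differed from the motif at 3 letters, and their half-sites were the same, so they differed only in the spacer. These matches describe letters in a window and were not tested for binding.

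Signals below are linear array intensities scaled to one trimmed mean. A signal under the floor of 34.96, the 40th percentile of all scaled signals, is treated as not measured, and a difference counts when it is at least 2-fold between the brightest probe sets. As the only error the arrays hold, probe sets of one gene differed from each other in their change from 0 h with an SD (log2) of 0.32 after 2 h and 0.34 after 12 h, and with an SD of 0.31 between 12 and 2 h. That SD was larger at low signals, from 0.41 at mean signals under 100 to 0.22 over 500 for 12 h against 0 h, and it leaves out the spread between cultures. Of the 15 probe sets, 12 were above the floor on all 3 arrays, 1 on some, and 2 on none, which left 8 measured genes. The cells carried their label: all 8 macrophage markers were above the floor on every array, and their summed signals were 19267, 19272 and 21323 in time order. Of 18 markers of other cell types on the array, 2 were above the floor on all arrays, Col1a2 (60, 38.6 and 64.5 at 0, 2 and 12 h) and Krt8 (67, 60.8 and 52.8). The inflammatory cytokine gene Tnf was at 184, 3346 and 1343.

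**Figure D1:**
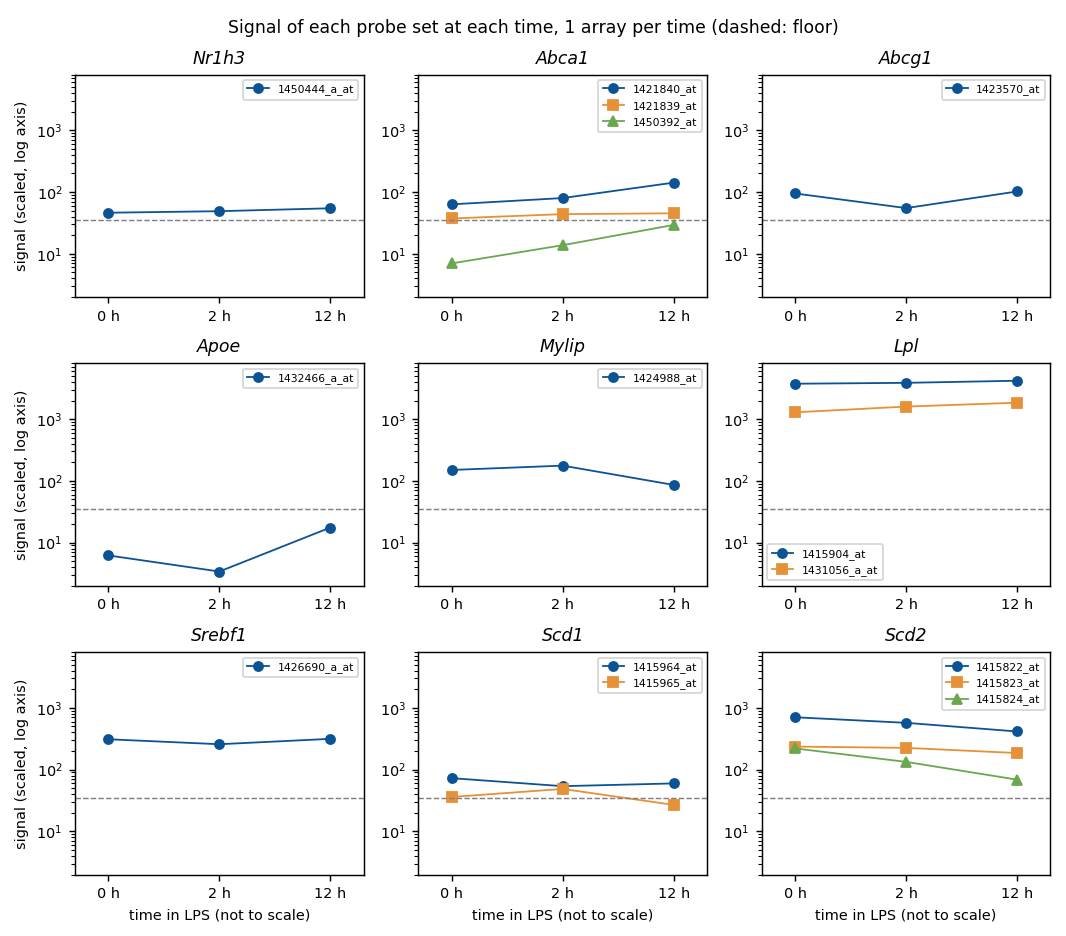
Signal of each probe set of the 9 genes (log axis, scaled units) at 0, 2 and 12 h of LPS, 1 array per time and with no error bars, with the floor of 34.96 as a dashed line. Lpl had signals above 1200 at every time, while the probe set of Apoe and 1 of the 3 of Abca1 were under the floor throughout.

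Among the receptors, Nr1h3 encodes LXR alpha, which macrophages use together with LXR beta from Nr1h2. The probe set of Nr1h3 gave 46.3, 49 and 54.6 at 0, 2 and 12 h, close above the floor. The log2 difference was 0.08 at 2 h and 0.24 at 12 h, both within the SD between probe sets of 0.37 and 0.41 at signals under 100. The 3 levels of Nr1h3 therefore have no order beyond that spread. Across the alternatives in which it was measured, its log2 difference at 12 h ran from 0.15 to 0.29. Nr1h2 was not analysed here.

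Abca1, the transporter that loads cholesterol onto lipid-poor apolipoprotein A-I, was the only gene of the set at least 2-fold higher at 12 h. Its brightest probe set gave 63.2 at 0 h, 79.9 at 2 h and 142 at 12 h. The order ran with time, and the 12 h array was 2.25-fold higher than the 0 h array, a log2 difference of 1.17 against an SD of 0.41. At 2 h the log2 difference was 0.34, within the SD of 0.37. The second probe set gave 37.4, 43.9 and 45.3 at 0, 2 and 12 h, near the floor, with a log2 difference of 0.28 at 12 h. It went the same way but fell short of the SD, and its 12 h and 2 h levels cannot be ordered, because their log2 difference of 0.05 turned to -0.05 with arrays scaled to one median and to -0.07 after quantile normalization. The third probe set gave 6.99, 13.8 and 29.3, under the floor on every array, and has no fold. The rise of Abca1 past 2-fold thus rested on 1 of its 3 probe sets. The median over them was the second probe set at each time, so it repeated that log2 difference of 0.28 at 12 h. A floor at the 60th percentile lay above the 0 h signal of the brightest probe set and left a bound of 0.75. A pseudocount of 32 gave 0.87, also under 2-fold.

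Abcg1, which exports cholesterol to mature HDL particles, had its lowest signal at 2 h. Its single probe set gave 94.8 at 0 h, 55 at 2 h and 102 at 12 h. The 2 h array was the low one, 1.72-fold below 0 h (log2 difference -0.79 against an SD of 0.37), and the 12 h array was 1.86-fold above 2 h. Between 12 h and 0 h the log2 difference was 0.11. None of the 3 differences reached 2-fold. The log2 difference at 2 h was -0.64 with arrays scaled to one median, -0.65 after quantile normalization and -0.54 with a pseudocount. A floor at the 60th percentile lay above the 2 h signal, so the -0.16 it left is a bound.

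Apoe encodes apolipoprotein E, a lipoprotein component that macrophages secrete and that accepts exported cholesterol. Its probe set gave signals of 6.19 at 0 h, 3.4 at 2 h and 17.5 at 12 h, each under the floor, so no fold is given. RAW264.7 is known as a line that makes little or no apolipoprotein E. Whether this probe set detects the transcript was not tested.

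Mylip encodes the ligase, also called IDOL, that marks receptors of the LDL family for degradation. Its signal was 150 at 0 h, 176 at 2 h and 85.8 at 12 h. The 12 h array was the lowest: it was 2.05-fold below 2 h, a log2 difference of -1.04 against an SD of 0.29, and 1.75-fold below 0 h, a log2 difference of -0.81 against an SD of 0.31. The 2 h and 0 h arrays differed by 0.23 (log2), within the SD of 0.30. Mylip and Abca1, both LXR targets, thus lay on opposite sides of 0 h at 12 h. A pseudocount used instead of the floor left Mylip under 2-fold for 12 h against 2 h, at -0.82.

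Lpl encodes lipoprotein lipase, which frees fatty acids from triglyceride-rich lipoproteins, and its signal was far above the floor at all times. The brighter probe set gave 3739, 3865 and 4180 at 0, 2 and 12 h, with log2 differences from 0 h of 0.05 and 0.16. The other gave 1288, 1594 and 1844, with log2 differences of 0.31 and 0.52. Both ran upward with time, by 11.8% and 43.2% at 12 h, and neither reached 2-fold. Between probe sets at signals over 500 the SD was 0.24 at 2 h and 0.22 at 12 h, so the first was within it at both times and the second beyond it.

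Srebf1 encodes the sterol regulatory factors SREBP-1a and SREBP-1c. Its probe set, which the annotation ties to the gene and not to one form, gave 310 at 0 h, 258 at 2 h and 315 at 12 h. The 2 h array was 1.20-fold below 0 h (log2 difference -0.27) and the 12 h array was level with it (0.02), both within the SD of 0.30 and 0.31 at signals of 100 to 500. Between 12 h and 2 h the log2 difference was 0.29, the same as the SD of 0.29 for that pair. The difference between 12 h and 0 h ran from 0.02 to 0.07 over the alternatives.

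Scd1 and Scd2 encode stearoyl-CoA desaturases, which make monounsaturated fatty acids. Scd1 was near the floor and its 2 probe sets disagreed in direction at 2 h. The brighter gave 72.7, 54 and 59.8 at 0, 2 and 12 h and the other gave 36.1, 48.7 and 26.8, so their log2 differences at 2 h were -0.43 and 0.43. At 12 h the brighter was at -0.28 from 0 h (log2), within the SD of 0.41, and the other was under the floor. No order of the 3 times can be given for Scd1.

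Scd2 was lower after LPS at 12 h in all 3 of its probe sets, each with the same order of 0 h, then 2 h, then 12 h from high to low. The brightest gave 705 at 0 h, 573 at 2 h and 415 at 12 h, the second 236, 225 and 186, and the third 220, 134 and 68.8. At 12 h they were 1.70-fold, 1.27-fold and 3.20-fold below 0 h. The direction was shared but the size was not: the log2 differences ran from -1.68 to -0.35, a range of 1.33, against an SD between probe sets of 0.34. At 2 h they ran from -0.72 to -0.07, and the smallest turned to 0.07 with arrays scaled to one median. Between 12 h and 2 h the log2 differences were -0.46 for the brightest, -0.28 for the second and -0.96 for the third. The drop of the third probe set at 12 h was the largest difference of the 12 probe sets above the floor on all arrays, at -1.68 (log2), and -1.32 with a pseudocount. By the brightest probe set Scd2 was not counted as 2-fold lower, and 1 of its 3 probe sets passed that size. Scd1 and Scd2 are close paralogs, and whether any of these probe sets reads both was not tested.

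**Figure D2:**
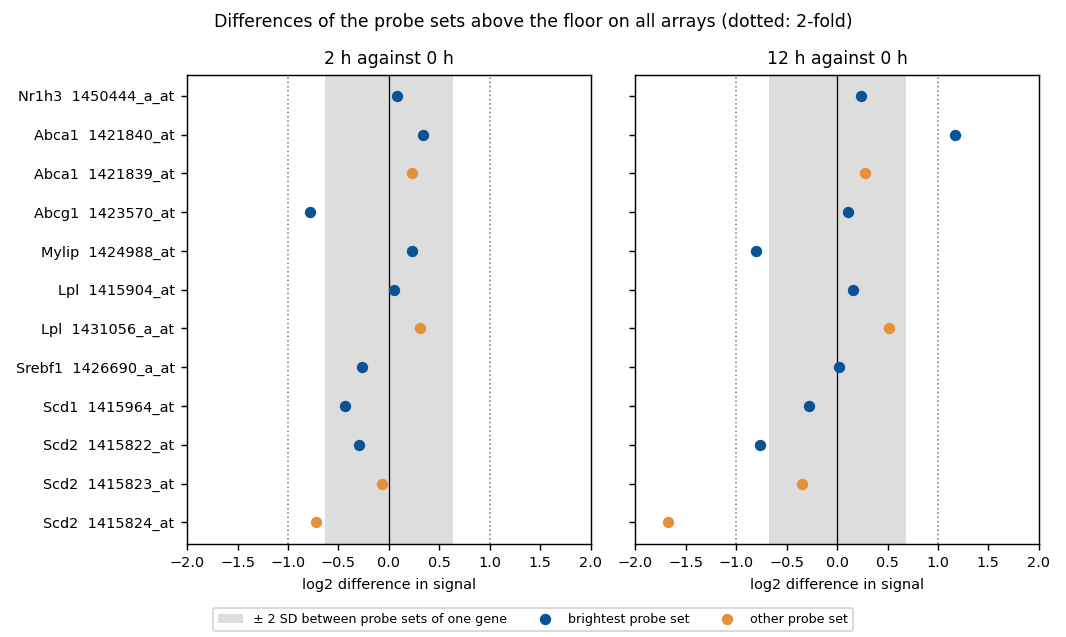
Log2 difference in signal from 0 h at 2 h (left) and 12 h (right) for the 12 probe sets above the floor on all arrays, with 2-fold as dotted lines and ± 2 SD between probe sets of one gene as a grey band. At 12 h the bright probe set of Abca1 (1.17) and 1 probe set of Scd2 (-1.68) lay past 2-fold.

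Of the 8 genes measured, 0 were counted higher and 0 lower at the 2-fold threshold for 2 h against 0 h, beside 2.09% and 1.68% of the 8413 genes measured there. With arrays scaled to one median, which moved the median log2 difference of all measured genes at 2 h from -0.10 to 0.03, the counts over all genes were 224 higher and 72 lower, in place of 176 and 141. For 12 h against 0 h, 1 of 8 was higher, Abca1, and 0 were lower, against 3% and 2.39% of 8619 genes. For 12 h against 2 h, 0 were higher and 1 was lower, Mylip, against 2.65% and 1.97% of 8457 genes. The median log2 difference of the set was -0.11 at 2 h and 0.07 at 12 h, beside -0.10 and -0.05 over all measured genes. At most 1 gene of the set passed 2-fold in any comparison.

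**Figure D3:**
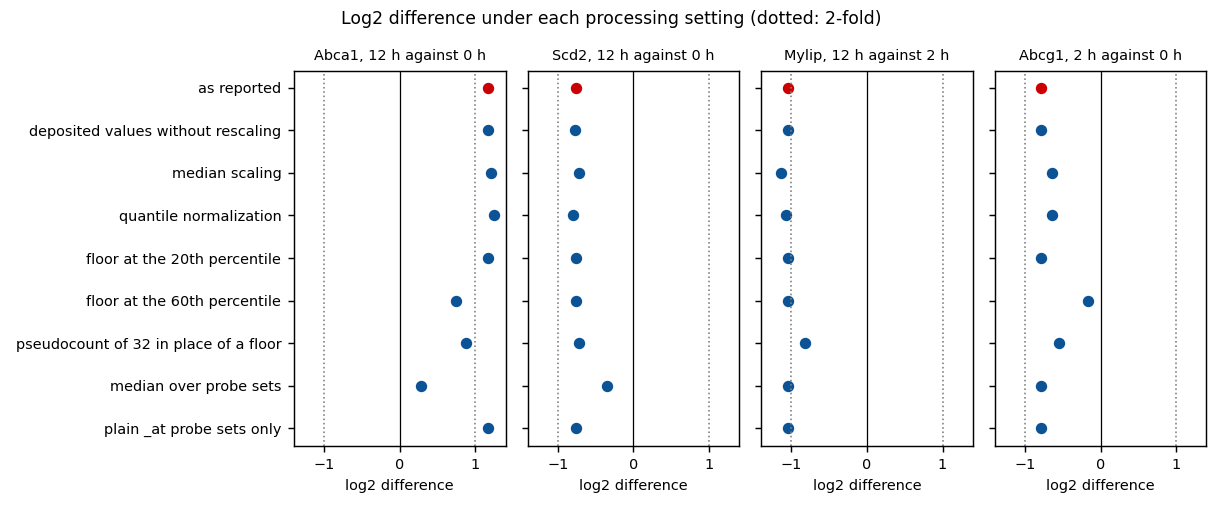
Log2 difference of Abca1, Scd2, Mylip and Abcg1 in the comparison named above each panel, under the settings reported (red) and each alternative (blue), with 2-fold as dotted lines. Abca1 ran from 0.28 to 1.24 and Abcg1 from -0.79 to -0.16, the last a bound set by the higher floor. Every value kept its sign. A floor or a pseudocount cannot reverse it, nor can the probe set choice for Mylip and Abcg1, with 1 probe set each.

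By distance in the 2 log2 differences from 0 h, over the 3 arrays and 7318 other genes above the floor on all of them, the courses closest to Abca1 were those of Sco2 (distance 0.03), Serpinb6b (0.06) and Cd164 (0.07). Sco2 had signals of 85.9, 110 and 196 at 0, 2 and 12 h. The closest to Mylip were Klf9 (0.03), Cdca3 (0.04) and Nup98 (0.07), with Klf9 at 173, 200 and 98.2. By the median over its probe sets, the 12 h array of Cdca3 was higher than that of 2 h by 0.55 and than that of 0 h by 0.35 (log2), the opposite direction, so that median did not share the likeness of its brightest probe set.

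To set the members beside the rest of their pathway, 100 other genes in 9 lists were read, of which 80 were on the array. At 2 h, 1 of 61 measured was at least 2-fold higher and 3 were lower, or 1.64% and 4.92%, beside 2.09% and 1.68% of all measured genes. At 12 h, 0 of 62 were higher and 4 were lower, or 0% and 6.45%, beside 3% and 2.39%. For 12 h against 2 h, 1 of 63 was higher and 2 were lower, or 1.59% and 3.17%, beside 2.65% and 1.97%. These counts are of a few genes each and were not tested. The list medians below stand beside -0.10 at 2 h and -0.05 at 12 h over all measured genes.

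LXR works with retinoid X receptors and with corepressor and coactivator proteins. Of the 13 of these on the array, none of the 11 measured at 2 h or the 10 at 12 h was 2-fold apart in either direction. Their median log2 difference was -0.26 at 2 h and -0.31 at 12 h, and with arrays scaled to one median that at 2 h was -0.12. The corepressor deacetylase gene Hdac3 had signals of 290 at 0 h, 240 at 2 h and 233 at 12 h. Tbl1xr1, another corepressor subunit gene, had 268, 294 and 192, a log2 difference of -0.48 at 12 h that was 0.03 by its plain-suffix probe set.

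Among 14 measured genes reported elsewhere as LXR targets, 0 were higher and 1 lower at 2 h, and 0 were higher and 2 lower at 12 h. Their median log2 differences were -0.12 and -0.37. With arrays scaled to one median that at 2 h turned to 0.02, and with the lower floor that at 12 h was -0.16. Smpdl3a, a phosphodiesterase gene induced by LXR ligands in macrophages, had signals of 339 at 0 h, 331 at 2 h and 138 at 12 h. It was 2.45-fold lower at 12 h than at 0 h, a log2 difference of -1.30. That was -1.25 with arrays scaled to one median, -1.28 after quantile normalization and -1.12 with a pseudocount. Its only probe set was above every floor used, so the other floors and probe set choices could not change it. Cd5l, a secreted macrophage protein gene, gave 74, 65 and 31.9, at least 2.12-fold lower at 12 h, where it was under the floor. With a pseudocount its log2 difference was -0.73.

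Abcg8, part of the sterol transporter of gut and liver, gave 110, 51.5 and 64.2 and was 2.14-fold lower at 2 h. Its log2 difference of -1.10 was -0.95 with arrays scaled to one median and -0.77 with a pseudocount. A floor at the 60th percentile lay above its 2 h signal and left a bound of -0.38. Npc2, which carries cholesterol out of lysosomes, ran the other way, with 1961 at 0 h, 1944 at 2 h and 3836 at 12 h. It was 1.96-fold higher at 12 h, just inside the threshold, and its plain-suffix probe set gave a log2 difference of 1.06. Elovl5, a fatty acid elongase gene, gave 654, 597 and 481.

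Oxysterols are made by sterol hydroxylases. Cyp27a1, the mitochondrial hydroxylase that makes 27-hydroxycholesterol, gave 109, 48.5 and 51.6 at 0, 2 and 12 h. It was the only one of this list past 2-fold. It was 2.25-fold lower at 2 h and 2.12-fold lower at 12 h, with the low level already reached at 2 h. With arrays scaled to one median the log2 difference was -1.03 at both times, and with a pseudocount it was -0.81 and -0.76. A floor at the 60th percentile lay above its 2 h and 12 h signals, so the -0.37 it left for both is a bound. The list's medians were -0.59 over 5 measured genes at 2 h and -0.08 over 6 at 12 h. With plain-suffix probe sets alone the median at 2 h was -0.23. Hsd3b7, a bile acid synthesis gene, gave 144, 95.7 and 141, and Cyp7a1 gave 46.2, 56.2 and 42.4.

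SREBP processing and fatty acid synthesis genes had 0 of 4 and 0 of 8 measured members past 2-fold at either time. Their median log2 differences were -0.22 and -0.22 at 2 h and -0.18 and 0.00 at 12 h. The SREBP processing median at 2 h has no settled direction, since it was 0.17 by the median over each gene's probe sets and -0.07 with arrays scaled to one median. With that scaling the fatty acid synthesis median at 2 h was -0.08. Srebf2, the regulator of cholesterol synthesis, gave 160 at 0 h, 213 at 2 h and 160 at 12 h, a log2 difference of 0.42 at 2 h. Acly, which makes cytosolic acetyl-CoA, gave 657, 687 and 779. Mbtps1, a protease that cuts SREBPs, gave 361, 300 and 291, and by the median over its 3 probe sets its log2 difference at 2 h was 0.19 in place of -0.27.

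In the list of lipoprotein and lipid uptake, Olr1, a receptor for oxidised LDL, was above the floor at 2 h alone, with 271 there against 26.3 at 0 h and 33.4 at 12 h. It was at least 7.75-fold higher at 2 h than at 0 h, the largest difference among the companion genes, and has no fold for 12 h against 0 h. A floor at the 60th percentile lowered its log2 difference at 2 h from 2.95 to 1.68. The scavenger receptors Cd36 (3083, 3424 and 3285) and Msr1 (1480, 1301 and 1744) were within 1.34-fold between any pair of times by their brightest probe sets. Msr1 had 4 probe sets. The median of their log2 signals differed from that at 0 h by -0.26 at 2 h and 0.02 at 12 h. By the brightest probe set these differences were -0.19 and 0.24. No other measured member of this list was past 2-fold at 2 h or 12 h.

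Angptl4, which encodes an inhibitor of lipoprotein lipase, gave 77.1 at 0 h, 38.1 at 2 h and 31.6 at 12 h. It was 2.03-fold lower at 2 h and at least 2.21-fold lower at 12 h, while Lpl was not lower in either probe set. Its other probe set was under the floor on every array and measured no change. Counted as level, it brought the median over the 2 probe sets to -0.51 and -0.57 (log2). With arrays scaled to one median the log2 difference at 2 h was -0.87. The lipases Pnpla2 (173, 170 and 166) and Lipe (78.9, 46.5 and 75.9) were under 2-fold.

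For stored sterol esters, Plin2, the coat protein of lipid droplets, gave 1178 at 0 h, 803 at 2 h and 1944 at 12 h. The 12 h array was 2.42-fold above 2 h and 1.65-fold above 0 h. Lipa, the lysosomal acid lipase that frees cholesterol from its esters, gave 1649, 1708 and 960, a log2 difference of -0.78 at 12 h. The other lipid transporters of the ABCA and ABCG families had medians of -0.30 over 6 measured genes at 2 h and 0.01 over 7 at 12 h, and only Abcg8 passed 2-fold, at 2 h. The median at 12 h turned to -0.14 by the median over each gene's probe sets and to -0.19 with a floor at the 60th percentile. Abca3 gave 114, 89.7 and 115, and Abca7 gave 135, 74.6 and 95.2.

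**Figure D4:**
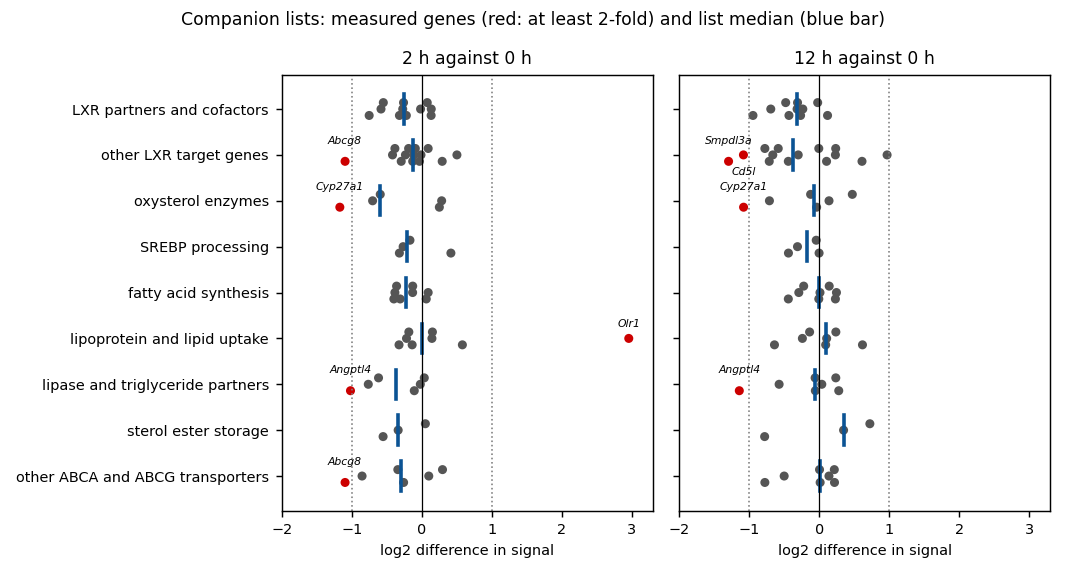
Log2 difference from 0 h at 2 h (left) and 12 h (right) for the measured genes of 9 companion lists, a dot per gene, with genes at least 2-fold apart in red and the list median as a blue bar. Olr1 stood alone on the higher side at 2 h, and Smpdl3a, Cd5l, Cyp27a1 and Angptl4 were past 2-fold lower at 12 h.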

How the data were processed

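Hybridisation targets came from 5 µg of RNA per sample of RAW264.7 cells, by an adapted Affymetrix protocol, per the labels. The table deposited by the authors holds linear intensity per probe set, 22690 in all with 64 controls, on 3 arrays. How scans were summarised is not stated by them. The 2% trimmed means of the deposited intensities were 150.05 on each array, so values are relative to an array's trimmed mean.

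Each array was rescaled to one trimmed mean over non-control probe sets, and signals under the 40th percentile were set to it before log2. Probe sets were named by the platform annotation: of 22626 non-control probe sets, 20380 had 1 gene, 691 with several were left out, and 1555 stayed unnamed. Of the 20380, 20351 matched a RefSeq gene identifier. A gene was read from its brightest probe set by mean log2 signal. Folds with 1 side under the floor are bounds. The array number limits the precision, and no p-value was computed. The counting was tested on simulated data, with changes put only into genes well above the floor at 0 h. The pass mark did not cover 2-fold changes, and changes near the floor were not simulated. Python 3.11.15 with pandas 2.3.3 and NumPy 2.4.6 was used.

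Members, lists and rules were chosen with earlier results of these data known. Named genes were the members, the 3 closest courses per member past 2-fold, and from each list those past 2-fold at either time against 0 h and up to 2 more by signal; Gapdh was not reported because its probe sets had several genes or were controls. Alternatives were scaling, floor, pseudocount, probe set choice and fold.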

Additional observations from a re-analysis of the deposited data

How the results depend on the processing

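Results were recomputed with no rescaling, with median scaling and after quantile normalization, with a lower (20th percentile) and a higher (60th percentile) floor, with a pseudocount of 32, with the median over probe sets, with plain-suffix probe sets alone, and at folds of 1.5 and 3. No paired analysis was possible because each time had 1 array. Of 261 member log2 differences recomputed, 250 moved by less than the SD between probe sets and 11 by more. Many could not move: a lower floor changes nothing above the floor reported. Probe set choice changes nothing for a gene with 1 plain-suffix probe set. Differences no longer measured under an alternative are left out of the 261. Of 722 differences of the other named genes, 48 moved by more. In addition, 1 past 2-fold turned to the opposite direction, Cdca3 for 12 h against 2 h (0.55 by the median over probe sets). Some differences under 2-fold also changed sign, among them those of Cdca3 for 12 h against 0 h (0.35) and Mbtps1 at 2 h (0.19) by the same median, and some list medians did too. The causes were not tested, beyond what a higher floor, a pseudocount or another fold does by construction.

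Among the members, 0 were 2-fold higher for 12 h against 0 h under the higher floor, a pseudocount, the median over probe sets or a fold of 3, in place of 1. For 12 h against 2 h, 0 were lower with a pseudocount or a fold of 3, in place of 1. With a fold of 1.5, 1 of 8 was lower at 2 h and 2 at 12 h against 0 h, beside 810 of 8413 and 891 of 8619 genes. For 12 h against 2 h, 2 of 8 were higher at that fold, beside 857 of 8457 genes.

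Counts over all genes (higher, lower) were 176 and 141 at 2 h and 259 and 206 at 12 h, each against 0 h, and 224 and 167 between 12 and 2 h. The lower count at 2 h came to 72 after median scaling, 85 after quantile normalization and 51 under either the higher floor or a pseudocount. In the same order of comparisons, the lower floor gave 349 and 507, 543 and 492, and 601 and 343. A fold of 1.5 gave 470 and 810, 713 and 891, and 857 and 545, and a fold of 3 gave 87 and 13, 100 and 27, and 55 and 48. The higher floor gave 170 and 113 at 12 h against 0 h, then 124 and 111 against 2 h. A pseudocount gave 104 lower at 12 h against 0 h, then 146 and 107 against 2 h.

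In the companion lists, the 3 lower at 2 h became 1 with median scaling or quantile normalization, 0 under the higher floor, a pseudocount or a fold of 3, and 9 with a fold of 1.5. The 1 higher at 2 h became 3 with plain-suffix probe sets. At 12 h against 0 h, the 0 higher became 1 with median scaling, the lower floor, the median over probe sets or plain-suffix probe sets, and 4 with a fold of 1.5. The 4 lower became 1 under the higher floor or a pseudocount, 13 with a fold of 1.5 and 0 with a fold of 3. For 12 h against 2 h, the 1 higher became 2 with the lower floor, a pseudocount, the median over probe sets or plain-suffix probe sets, 6 with a fold of 1.5 and 0 with a fold of 3, and the 2 lower became 7 and 1 with those folds. Scaling, floor and probe set choice can change which genes are measured, so the counts under them can have other totals. With the settings reported, and at the other folds, the list counts are of 61 genes at 2 h, 62 at 12 h and 63 between 12 and 2 h. At a fold of 1.5 they stand beside 810 lower of 8413 genes at 2 h and 713 higher and 891 lower of 8619 at 12 h. Between 12 and 2 h they stand beside 857 higher and 545 lower of 8457.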
